A study of Mus musculus with 25 samples.

Results

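Wild type (WT) neonatal mouse cardiac myocytes cultured with serum were compared with WT myocytes cultured without it, on 12 of the 25 arrays of the series. The members were the 7 arrays whose source label names WT myocytes treated with serum and the 5 whose label names WT myocytes not treated with it. All 12 cultures were held in serum free medium, and the 7 were then exposed to 20% fetal bovine serum for 24 hours before RNA was taken. The remaining 13 arrays held TG myocytes, which overexpress the transcription factor CHF1/Hey2 in the myocardium from the mlc2v promoter, 7 with serum and 6 without. The study used serum to induce hypertrophy, the enlargement of heart muscle cells, and the methods count each array as an independent culture whose purity was checked by staining of sarcomeric myosin. Neither the strain of the mice, nor whether cultures came from separate litters, nor how many hearts were pooled for a culture is given in the sources used here, so a p-value here reflects only how far these cultures vary, which may be technical.

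Serum carries growth factors, bioactive lipids, hormones and lipoproteins. Newborn heart muscle cells have largely left the cell cycle, and growth stimuli are known to enlarge them and to turn on early response genes, protein synthesis and a fetal gene program. Cells make cholesterol through the mevalonate pathway when they lack it. The transcription factor SREBP2 turns that pathway on, while the INSIG proteins hold SREBP2 back in the membranes of the endoplasmic reticulum when sterols are plentiful. Preparations of heart muscle cells also hold some fibroblasts, endothelial cells and other cells of the heart, and a measurement on the whole culture reads all of them.

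The arrays with and without serum differed in scale as deposited. The median log2 intensity of an array was 5.26 to 5.36 with serum and 5.02 to 5.09 without, and the SD over probe sets was 2.55 to 2.58 with serum and 2.10 to 2.13 without. The 2 sets appear to have been normalized apart, so serum and the set of arrays cannot be told apart in any single value below. After joint quantile normalization of the 25 arrays, Pearson correlations over probe sets were 0.986 to 0.993 among arrays with serum, 0.990 to 0.995 among arrays without, and 0.965 to 0.973 between the sets. The adjusted limma test at p under 0.05 was passed by 20323 of 35557 probe sets (57.2%), and so it tells little about any gene. Of 19938 genes, each taken from its brightest probe set, 5827 (29.2%) were higher and 5717 (28.7%) were lower by that test. These are the shares against which each count below is to be read. Of 1270 genes of the olfactory, vomeronasal and bitter taste receptor and beta-defensin families, 56.8% passed it as well. Another scaling turns the split of such calls, from 49.7% higher to 56.5% with the deposited values, 38.2% with each array centred on its median and 18.9% with each array centred and scaled to 1 SD.

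For this reason a gene is called order-shifted here where its place among genes of like intensity moved far. The shift of a gene is its log2 difference, serum minus no serum, less the median log2 difference of the 1000 probe sets nearest to it in mean intensity. An order-shifted gene passed the adjusted test, had a shift of at least 1 (2-fold) and of at least 3 robust SDs of those neighbours, and had within-array ranks that did not overlap between the 7 and the 5 arrays. These steps left 540 of 35557 probe sets (1.52%), after 2065 with a shift of at least 1 and 567 with at least 3 robust SDs. Of the 540, 35.2% were higher, against 27.6%, 27.4% and 27.8% under those 3 scalings. Of the genes taken from their brightest probe set, 89 (0.446%) were order-shifted higher with serum and 69 (0.346%) lower. Counting any probe set named for 1 gene there were 177 genes, 101 higher and 76 lower, of which 20 are represented by a probe set that was not the brightest of its gene. Just inside the limit lay Fbl with a shift of 1.13 (3.01 robust SDs) and H2-Q2 with -1.66 (3.02 robust SDs), and just outside it lay Mrps25 with 1.06 and Pcyt2 with -1.02 (both 2.99 robust SDs).

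**Figure D1:**
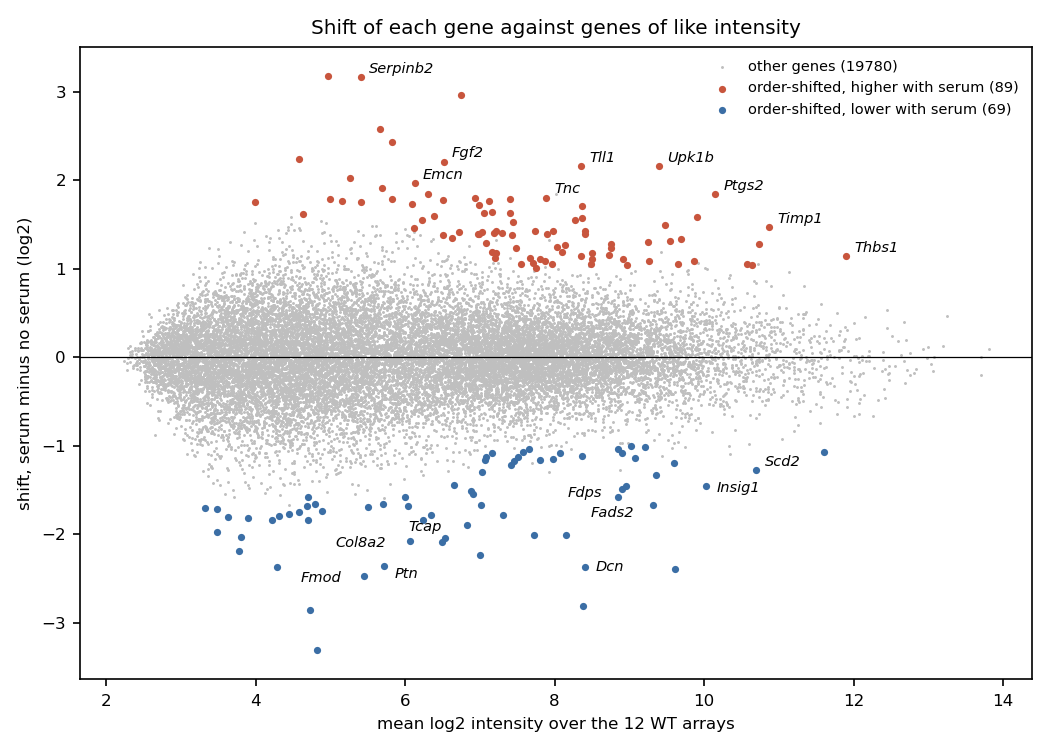
Shift of each of 19938 genes, serum minus no serum (vertical axis, log2), against its mean log2 intensity over the 12 WT arrays (horizontal axis). Red points are the 89 order-shifted genes that were higher with serum, blue points the 69 that were lower, and grey points all other genes, whose spread is widest at low to middle intensity.

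The genes of cholesterol synthesis were lower with serum nearly as a whole. Of the 20 measured genes of this list 19 passed the adjusted test as lower and 0 as higher, beside 28.7% and 29.2% of all genes, and the median shift was -0.94, beside -0.0027 over all genes. Order-shifted among them were 6, all lower, namely Fdps, Idi1, Insig1, Fdft1, Dhcr7 and Cyp51. The gene that did not pass was Ebp, a sterol isomerase, with a shift of -0.20 (limma, adjusted p = 0.0553). Lss, which closes the sterol rings, passed with a shift of -0.89.

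Fdps (chr3:89093588-89101967, GRCm38.p6), which makes farnesyl diphosphate, had log2 intensities of 9.68, 9.75, 9.77, 9.88 and 9.68 on the 5 arrays without serum and of 8.18 to 8.36 (median 8.32) on the 7 with serum. The groups lay more than 1 log2 unit apart. Fdps fell by 1.47 on the log2 scale (SE 0.05, 2.77-fold lower, adjusted p = 1.3e-09 in limma). Idi1 (chr13:8885606-8892396), the isomerase just before it in the pathway, had values of 9.65, 9.61, 9.90, 10.00 and 9.86 without serum and of 8.06 to 8.56 (median 8.42) with serum, a fall of 2.73-fold (log2 difference -1.45, SE 0.11, adjusted p = 2.47e-07). Insig1 (chr5:28071412-28078662), itself a target of SREBP2, had values of 10.79, 10.84, 10.87, 10.84 and 11.02 without serum and of 9.20 to 9.69 (median 9.41) with serum, a fall of 2.71-fold (log2 difference -1.44, SE 0.09, adjusted p = 7.13e-08). No array with serum reached the lowest array without serum for any of these 3 genes. The Idi1 probe set (10482762) is numbered far from that of Hmgcs1 (10412466), a gene also on chr13. Whether it reads the Idi1 locus given here or a copy elsewhere is therefore uncertain.

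Further along the pathway, Fdft1, which joins farnesyl units into squalene, fell 2.50-fold, from 10.00 to 10.33 over the arrays without serum to 8.49 to 8.99 with serum. Dhcr7, the enzyme of the last step to cholesterol, fell 2.22-fold (7.96 to 8.26 against 6.83 to 7.07), and the demethylase Cyp51 fell 2.16-fold (8.89 to 9.07 against 7.64 to 8.20). The groups did not overlap for these genes either. Next in size and past the adjusted test, but not order-shifted, came the squalene epoxidase Sqle (shift -1.03), the mevalonate kinase Mvk (shift -1.03) and Hmgcs1, the synthase at the head of the pathway (shift -1.01, 2.9 robust SDs, adjusted p = 1.33e-07). Srebf2, the gene of SREBP2, had a shift of -0.54 (adjusted p = 1.98e-06), and read 8.51 to 8.66 with serum against 9.02 to 9.22 without it. The mean of the list per array lay 0.45 to 0.59 above the mean of the 12 WT arrays without serum and between -0.46 and -0.28 with serum, so every array stood on the side of its group.

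**Figure D2:**
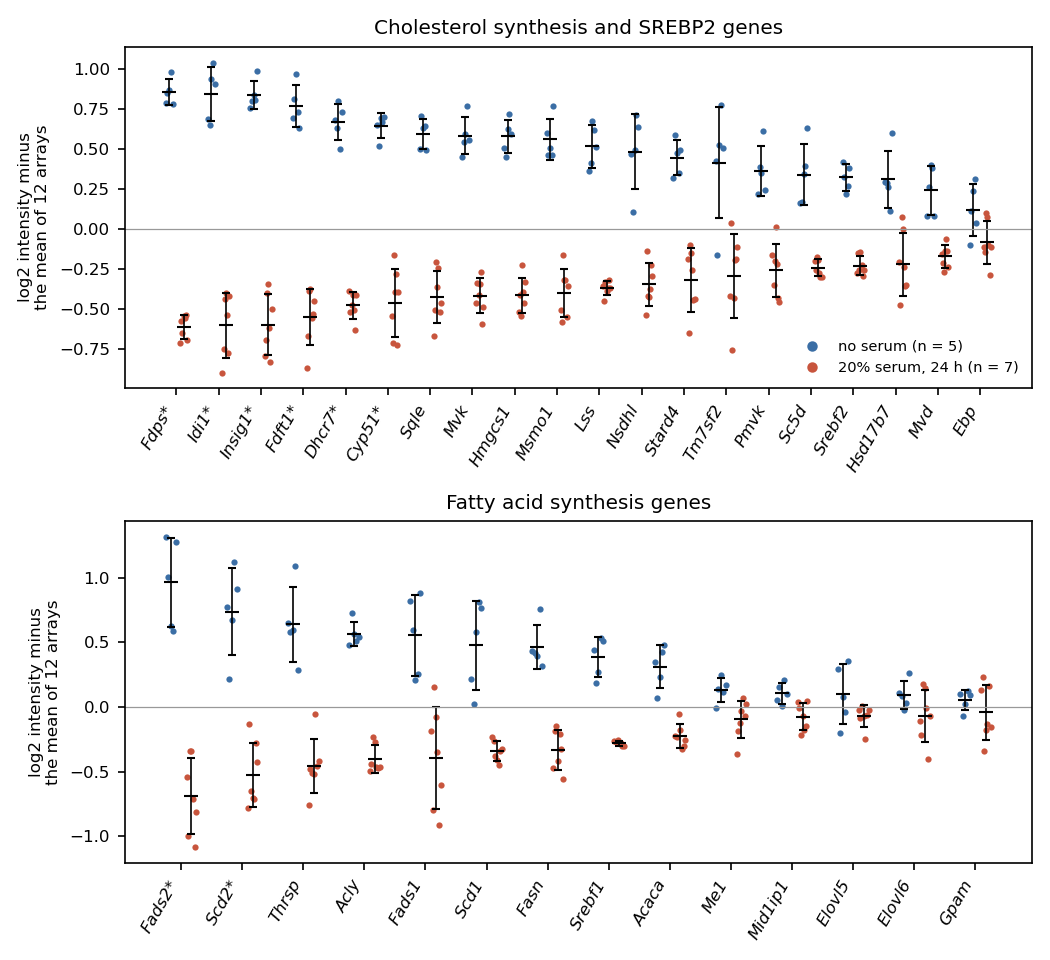
Log2 intensity of each gene on each WT array, less the gene's mean over the 12 arrays, for 20 genes of cholesterol synthesis (top) and 14 of fatty acid synthesis (bottom), with blue points for 5 arrays without serum and red points for 7 with serum, bars for the mean and 1 SD, and an asterisk for order-shifted genes. Blue points lie above red ones for nearly every gene of the upper panel, and the separation closes at the right of both panels, at Ebp and at Gpam.

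The promoters of these genes were read because the members of the list moved together. Windows of the 250 bases before the start site were taken from RefSeq on GRCm38.p6, of which 32851 were given, for 27025 genes, and 16 of the 20 cholesterol genes had one. Fdps and Fdft1 were among the cholesterol genes without a window. The windows of Hmgcs1, Idi1 and Insig1 are printed 5' to 3' along the gene, to show 3 arrangements of the same short motifs. Capitals mark a CCAAT box (CCAAT or its reverse complement ATTGG), a sterol element (TCACNCCAC) or an E-box (CACGTG). The Hmgcs1 window lies at chr13:119690101-119690350, the Idi1 window at chr13:8885356-8885605 and the Insig1 window at chr5:28071162-28071411, all on the + strand.
Hmgcs1: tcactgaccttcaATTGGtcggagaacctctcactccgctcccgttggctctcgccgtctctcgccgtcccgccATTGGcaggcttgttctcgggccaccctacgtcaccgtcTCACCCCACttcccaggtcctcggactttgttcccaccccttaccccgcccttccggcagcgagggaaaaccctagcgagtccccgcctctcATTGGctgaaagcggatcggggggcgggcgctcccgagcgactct
Idi1: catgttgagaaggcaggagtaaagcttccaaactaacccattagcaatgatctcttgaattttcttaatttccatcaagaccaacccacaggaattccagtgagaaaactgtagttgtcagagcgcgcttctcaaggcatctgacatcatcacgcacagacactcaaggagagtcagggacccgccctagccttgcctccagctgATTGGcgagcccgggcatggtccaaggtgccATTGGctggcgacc
Insig1: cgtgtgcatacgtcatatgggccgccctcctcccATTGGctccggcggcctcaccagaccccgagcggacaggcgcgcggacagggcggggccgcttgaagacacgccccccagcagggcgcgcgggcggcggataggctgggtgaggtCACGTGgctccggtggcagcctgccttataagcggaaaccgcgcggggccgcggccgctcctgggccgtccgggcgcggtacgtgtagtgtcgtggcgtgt

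The Hmgcs1 window held ATTGG at 237, 176 and 45 bases before the start site and the sterol element TCACCCCAC at 137. The Idi1 window held ATTGG at 45 and 14 bases before the start site, and the Insig1 window held ATTGG at 216 and the E-box at 101. Searched on both strands, a CCAAT box was present in 16 of 16 cholesterol genes with a window (100%), beside 33.85% of all windows and 37.49% of all genes. A sterol element was present in 1 of the 16, that of Hmgcs1, beside 1.225% of all genes, and an E-box in 4 (25%), those of Dhcr7, Hsd17b7, Insig1 and Sc5d, beside 6.86%. Of the fatty acid synthesis genes, 11 had a window, and 6 of them (54.55%) held a CCAAT box and 0 a sterol element. Among order-shifted genes with a window, a CCAAT box was present in 28 of 78 genes higher with serum (35.9%) and in 30 of 53 genes lower (56.6%). The AP-1 site TGACTCA was present in 7 of the 78 (8.974%), namely Anxa10, F2rl2, Il11, Olr1, Plaur, Prl3d3 and Sprr1a, in 4 of the 53 (7.547%), and in 5.162% of all genes. A match describes these letters and is not a bound site.

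Fatty acid synthesis genes were also lower with serum. Of 14 measured genes 11 passed the adjusted test as lower and 0 as higher, with a median shift of -0.74, and 2 were order-shifted. Fads2 (chr19:10062765-10101503), a desaturase that starts the making of long polyunsaturated fatty acids, had values of 10.64, 10.33, 9.95, 9.91 and 10.60 without serum and of 8.24 to 8.98 (median 8.61) with serum, a fall of 3.15-fold (log2 difference -1.65, SE 0.17, adjusted p = 3.91e-06). Scd2, which puts the first double bond into fatty acids, had values of 11.47, 10.92, 11.37, 11.82 and 11.61 without serum and of 9.92 to 10.57 (median 10.05) with serum, a fall of 2.41-fold. Both groups stayed apart for each gene. Thrsp (shift -1.13), the citrate lyase Acly (-0.97), the desaturase Fads1 (-0.96), Fasn, the fatty acid synthase (-0.82), and Srebf1, the gene of the factor SREBP1 (-0.66), passed the adjusted test and were not order-shifted. The elongases Elovl5 and Elovl6 and the acyltransferase Gpam did not pass, with shifts of -0.17, -0.16 and -0.10. Outside the lists, and named after their values were seen, Acss2, which makes acetyl-CoA from acetate, fell 2.05-fold (shift -1.04), and Idh1, a cytosolic source of NADPH, fell 2.01-fold (shift -1.02).

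The largest rises with serum came in genes of diverse kinds, and the 15 largest shifts ran from 1.82 (Phc3) to 3.18 (Prl3d3). Several of the order-shifted genes take part in clotting and in the breakdown of clots, a grouping made after the values were seen. Serpinb2 (chr1:107500892-107525600), an inhibitor of plasminogen activators, had values of 3.49, 3.52, 3.56, 3.51 and 3.57 without serum and of 6.30 to 7.67 (median 6.42) with serum. It rose 9.31-fold (log2 difference 3.22, SE 0.23, adjusted p = 1.89e-07 in limma), and its level without serum was low on these arrays. Plaur (chr7:24460937-24475970), the receptor of urokinase, had values of 7.13, 7.65, 7.31, 7.20 and 7.55 without serum and of 8.44 to 9.96 (median 9.04) with serum, a rise of 3.28-fold (SE of the log2 difference 0.23, adjusted p = 3.79e-05). Thbd, the thrombin receptor that activates protein C, had values of 5.93, 6.23, 5.98, 5.90 and 6.42 without serum and of 7.53 to 8.10 (median 8.01) with serum, a rise of 3.39-fold (adjusted p = 2.74e-07). The groups did not overlap for these 3 genes. F2rl2, a thrombin receptor of the protease-activated family, rose 4.23-fold, from 3.75 to 4.27 without serum to 5.88 to 6.41 with serum, and Tfpi2, a protease inhibitor, rose 2.72-fold, from 6.65 to 7.09 to 7.32 to 9.11.

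Some order-shifted genes encode secreted growth factors and cytokines, a grouping made after the values were seen. The list of 25 measured chemokines and cytokines had 7 that passed as higher and 8 as lower (median shift -0.12, at 0.044 without WT no serum replicate 5), with Il11 order-shifted. Fgf2 (chr3:37348477-37410106), a fibroblast growth factor made by heart muscle cells among others, had values of 5.24, 5.08, 5.08, 5.07 and 5.68 without serum and of 6.64 to 8.19 (median 7.51) with serum. It rose 4.60-fold (log2 difference 2.20, SE 0.26, adjusted p = 1.23e-05). Il11, a cytokine of the interleukin-6 family, had values of 4.77, 4.80, 4.88, 4.64 and 4.71 without serum and of 6.18 to 7.15 (median 6.57) with serum, a rise of 3.55-fold (adjusted p = 1.41e-06), and it lost its call where 3 arrays low in myocyte markers, described further on, were left out together. Inhba, the subunit of activin A, rose 2.52-fold (8.63 to 8.86 against 9.72 to 10.59), and Hbegf, an EGF receptor ligand, rose 2.09-fold (9.38 to 10.31 against 10.79 to 11.34). Edn1, the precursor of the peptide endothelin-1, rose 2.18-fold (6.90 to 7.25 against 7.35 to 8.92, adjusted p = 0.00244). Hbegf and Edn1 lay near the limit of the call and kept it under 16 and 20 of 24 other settings, and both lost it where those 3 arrays were left out. Ereg, another EGF receptor ligand, had a shift of 1.84 but ranks that overlapped, since its highest array without serum read 7.81 and its lowest with serum 7.80.

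The order-shifted genes included a cyclooxygenase and a phospholipase that act early on the path to prostaglandins. Ptgs2 (chr1:150100031-150108234), the inducible cyclooxygenase, had values of 9.18, 9.18, 8.94, 8.55 and 9.47 without serum and of 10.20 to 11.63 (median 10.90) with serum, a rise of 3.64-fold (log2 difference 1.87, SE 0.25, adjusted p = 4.36e-05). Pla2g4a, the phospholipase that frees arachidonic acid, had values of 7.42, 7.48, 7.28, 6.84 and 7.79 without serum and of 8.19 to 9.56 (median 8.95) with serum, a rise of 2.92-fold (adjusted p = 0.000119). Slco2a1, a prostaglandin transporter, had a shift of 1.34 and was order-shifted as well. These were grouped after their values were seen.

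The other genes among the 15 largest rises were Crct1 (7.80-fold), the protease inhibitor-like Pi15 (6.08-fold), E330013P04Rik (5.54-fold), the annexin Anxa10 (4.80-fold), the metalloprotease Tll1 (4.49-fold), the urothelial membrane protein Upk1b (4.52-fold), the endothelial sialoprotein Emcn (3.97-fold), the semaphorin Sema7a (3.83-fold), S100a7a (3.57-fold) and the Polycomb protein Phc3 (3.51-fold). Tll1 had values of 6.94, 7.40, 6.97, 6.88 and 7.26 without serum and of 8.33 to 9.99 with serum, and Upk1b of 7.46, 8.37, 8.73, 8.20 and 7.86 against 9.40 to 10.90. Prl3d3, a prolactin family gene of the placenta with near-identical neighbours that can share probes, read 2.84 to 3.54 without serum and 4.88 to 7.31 with serum. Phc3 had 2 probe sets, of which 1 was order-shifted.

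**Figure D3:**
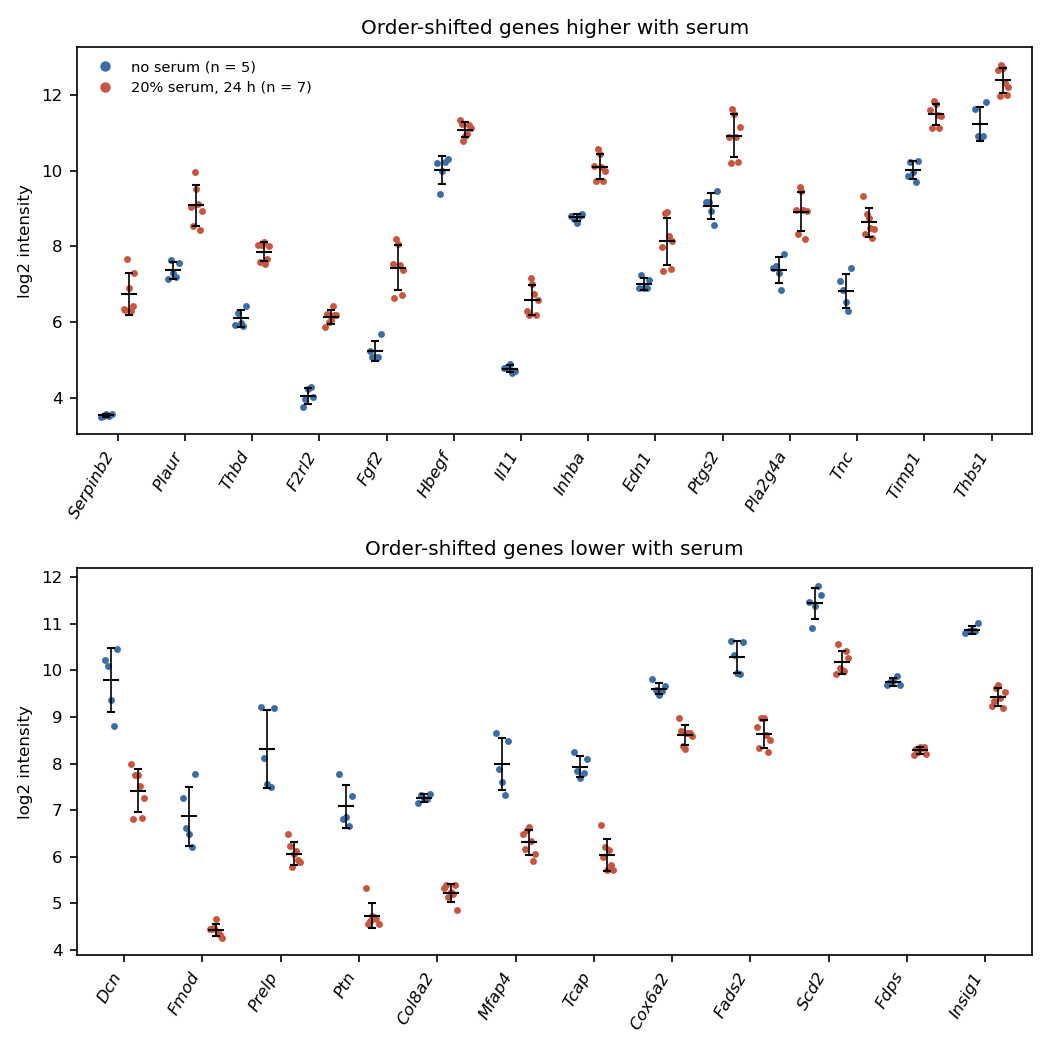
Log2 intensity on each WT array of 14 order-shifted genes that were higher with serum (top) and 12 that were lower (bottom), with blue points for 5 arrays without serum, red points for 7 with serum, and bars for the mean and 1 SD. The groups do not overlap for any gene shown, and the arrays with serum spread more than those without for Serpinb2, Fgf2 and Edn1.

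Several of the genes with the largest falls encode small leucine-rich proteoglycans and other matrix proteins, a grouping made after the values were seen and not borne out by the matrix list as a whole, given below. Dcn (chr10:97479500-97518163), decorin, which binds collagen fibres and TGF-beta, had values of 10.23, 10.09, 9.35, 8.80 and 10.45 without serum and of 6.82 to 8.0 (median 7.52) with serum. It fell 5.16-fold (log2 difference -2.37, SE 0.29, adjusted p = 2.04e-05). Fmod (chr1:134037254-134048280), fibromodulin, had values of 7.26, 6.61, 6.49, 6.21 and 7.77 without serum and of 4.26 to 4.65 (median 4.44) with serum, a fall of 5.43-fold (adjusted p = 1.21e-06). Prelp, of the same proteoglycan family, fell 4.74-fold (7.49 to 9.21 against 5.78 to 6.49). The groups lay well apart in each case, although the arrays without serum spread over more than 1 log2 unit.

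Col8a2, a chain of the network-forming collagen VIII, had values of 7.14, 7.33, 7.23, 7.25 and 7.34 without serum and of 4.86 to 5.39 (median 5.25) with serum, a fall of 4.12-fold (log2 difference -2.04, SE 0.09, adjusted p = 4.01e-09). Its replicates were much tighter than those of the proteoglycans. Ptn, the heparin-binding growth factor pleiotrophin, fell 5.09-fold (6.67 to 7.78 against 4.55 to 5.33), and Mfap4, a microfibril protein, fell 3.20-fold (7.33 to 8.64 against 5.91 to 6.64). Matrix genes did not move in a single direction. Of 36 measured genes of the extracellular matrix list 10 passed the adjusted test as higher and 7 as lower, and the median shift was -0.10, a sign that turned, with medians of 0.03, 0.05 and 0.01, without WT no serum replicate 1 or 5 or WT serum replicate 6. Order-shifted higher were Tnc, tenascin C (3.49-fold, 6.28 to 7.43 against 8.23 to 9.32), Timp1, an inhibitor of matrix metalloproteases (2.79-fold, 9.71 to 10.26 against 11.14 to 11.84), and Thbs1, thrombospondin 1 (2.23-fold, 10.87 to 11.81 against 11.98 to 12.80). Col1a1, the main chain of collagen I, read 11.55 to 12.49 without serum and 11.65 to 12.62 with serum (shift 0.01, adjusted p = 0.928).

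Genes of the contractile apparatus and of the fetal program gave a mixed picture. Of 26 measured sarcomere genes 6 passed the adjusted test as lower and 1 as higher, with a median shift of -0.27. The 1 order-shifted member was Tcap (chr11:98383811-98384953), telethonin, which anchors titin at the Z-disc. Its values were 8.25, 7.84, 7.69, 7.79 and 8.10 without serum and 5.71 to 6.68 (median 6.00) with serum, a fall of 3.72-fold (log2 difference -1.89, SE 0.16, adjusted p = 8.6e-07). Without WT no serum replicate 2, which was low in myocyte genes, 12 sarcomere genes passed as lower and 1 as higher. In bulk cultures fewer cells of a type and less RNA per cell cannot be told apart.

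The natriuretic peptide gene Nppa, the usual marker of hypertrophy, had values of 13.04, 12.55, 12.96, 13.08 and 13.02 without serum and of 12.67 to 13.30 (median 13.14) with serum. The groups overlapped in part (log2 difference 0.12, SE 0.14, adjusted p = 0.468). The related gene Nppb read 9.83 to 11.37 without serum and 10.33 to 11.48 with serum (adjusted p = 0.784). The alpha myosin gene Myh6 (shift 0.04, adjusted p = 0.907), the skeletal actin gene Acta1 (shift -0.02, adjusted p = 0.994) and the cardiac actin gene Actc1 (log2 difference 0.01, adjusted p = 0.893) had groups that overlapped too. A p that misses the threshold does not show that these genes were level, and the sign of each of these 5 small shifts turned under at least 1 other setting.

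Myh7, the beta myosin gene, passed the adjusted test and was not order-shifted. It read 11.33, 9.86, 11.06, 11.35 and 11.30 without serum and 9.17 to 10.47 (median 9.97) with serum (log2 difference -1.08, SE 0.29, adjusted p = 0.006), and WT no serum replicate 2 lay within the range with serum. Myl2, the ventricular light chain, had a shift of -0.66 (adjusted p = 0.0102) and Myl7, the atrial light chain, a shift of 1.06 (adjusted p = 0.00337), neither order-shifted. Of 17 measured genes of the fetal hypertrophy list 5 passed as higher and 3 as lower, with a median shift of 0.11 that turned to -0.06 with each array centred and scaled to 1 SD, and the order-shifted members were Tnc and Hbegf. Hey2, which encodes CHF1/Hey2 itself, read 6.31 to 6.58 without serum and 6.45 to 7.14 with serum (shift 0.27, adjusted p = 0.0325), and was not order-shifted.

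**Figure D4:**
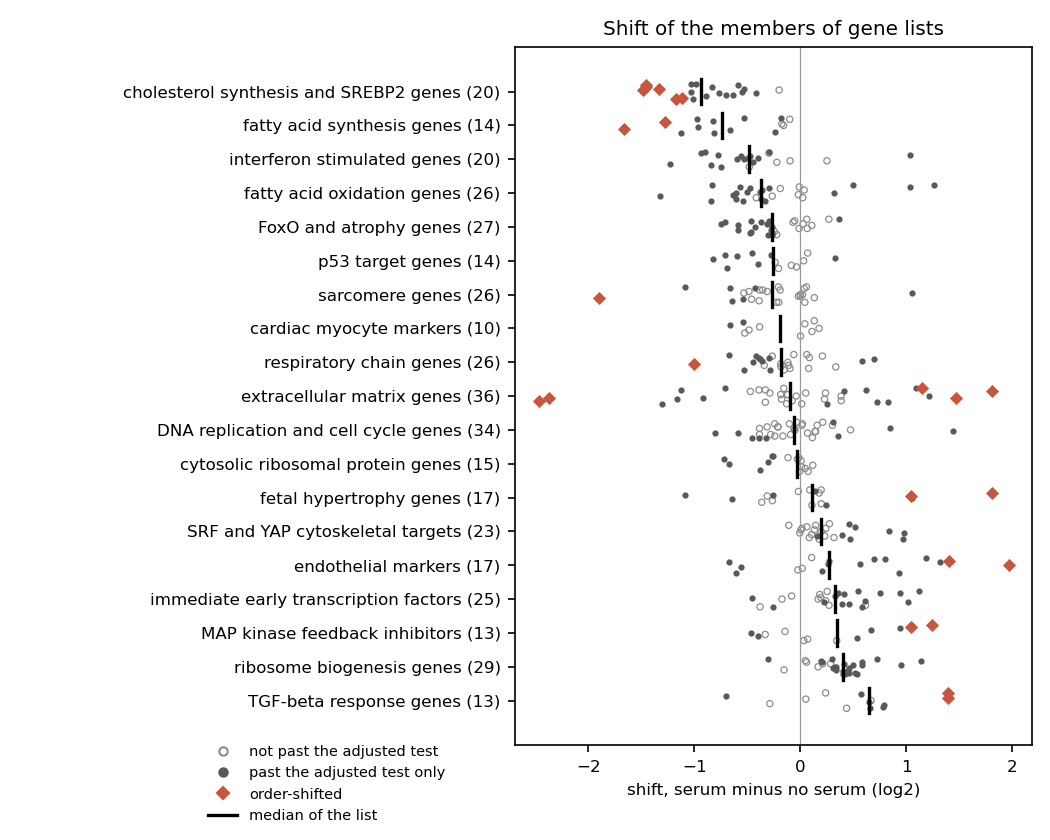
Shift of each measured member of 19 gene lists (horizontal axis, log2, serum minus no serum), 1 row per list with the number of genes measured in parentheses and a bar at the median. Open circles did not pass the adjusted test, filled circles passed it alone, and red diamonds were order-shifted, so that cholesterol synthesis stands at one end with a median of -0.94 and TGF-beta response genes at the other with 0.65.

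Known serum response genes showed small shifts at 24 hours, most of them upward. Of 25 immediate early transcription factors 13 passed the adjusted test as higher and 2 as lower, with 0 order-shifted and a median shift of 0.33. The largest were Maff (shift 1.12) and Egr2 (1.01), while Fos had a shift of -0.25 (adjusted p = 0.0348), Junb of -0.45 (adjusted p = 0.000911), Egr1 of 0.24 (adjusted p = 0.224) and Myc of 0.62 (adjusted p = 0.0525). Of 23 cytoskeletal targets of SRF and YAP 8 passed as higher and 0 as lower (median shift 0.20), led by Amotl2 (0.98) and the actin-binding caldesmon gene Cald1 (0.97).

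Feedback inhibitors and TGF-beta response genes held order-shifted members. Id3, a repressor of helix-loop-helix factors, had values of 6.07, 7.03, 5.91, 5.62 and 6.16 without serum and of 7.32 to 7.87 (median 7.55) with serum, a rise of 2.63-fold (SE of the log2 difference 0.19, adjusted p = 4.91e-05). Smad7, the inhibitor of TGF-beta signalling, had values of 7.70, 7.42, 7.62, 7.63 and 7.63 without serum and of 8.67 to 9.36 (median 8.96) with serum, a rise of 2.63-fold (SE 0.10, adjusted p = 3.09e-07). Both groups stayed apart for each gene. Of the 13 measured TGF-beta response genes 7 passed as higher and 1 as lower, with a median shift of 0.65, and the lower one was Tgfbi (shift -0.70), a matrix protein. Errfi1, which blocks the EGF receptor, rose 2.36-fold (7.80 to 8.25 against 8.89 to 9.55), and Dusp4, a phosphatase that switches off MAP kinases, rose 2.07-fold (7.76 to 8.88 against 8.90 to 9.96), a call it kept under 18 of 24 other settings and lost without the 3 arrays. Of the 13 MAP kinase feedback inhibitors 6 passed as higher and 2 as lower. Named after its values were seen, Cish, a brake on cytokine signalling, rose 2.36-fold (6.81 to 7.77 against 8.36 to 8.70).

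Ribosome biogenesis genes were higher with serum by small steps. Of 29 measured genes 22 passed the adjusted test as higher and 1, Utp20, as lower, with 0 order-shifted by their brightest probe set and a median shift of 0.40. Rrs1, an assembly factor of the large subunit, read 5.93 to 6.37 without serum and 7.12 to 7.40 with serum (shift 1.14, adjusted p = 3.97e-07), and Nhp2, a protein of the small nucleolar ribonucleoproteins, read 8.41 to 8.51 and 9.28 to 9.59 (shift 0.95, adjusted p = 4.91e-08). Their groups did not overlap. The probe sets of Fbl, fibrillarin, disagreed, with shifts of 0.05 for the brightest and 1.13 for another that was order-shifted. The list mean per array was -0.31 to -0.17 without serum and 0.07 to 0.28 with serum. Named after their values were seen, 3 small nucleolar RNA genes were order-shifted higher, Snord49b (3.47-fold), Snord57 (2.70-fold) and Snora52 (2.27-fold).

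Cell cycle genes did not move together. Of 34 measured DNA replication and cell cycle genes 4 passed the adjusted test as higher and 5 as lower, both under the background shares, with a median shift of -0.06, at 0.0037 without WT no serum replicate 5, and 0 order-shifted. Gins1, of the replicative helicase, had a shift of 1.44 (adjusted p = 1.68e-05) and Cdc6, which loads that helicase, of 0.85, while the proliferation marker Mki67 had one of -0.80. Gins1 was the 1 gene of the list with a mean log2 under 5. The number that passed as lower ranged from 1 to 9 as single arrays were left out, lowest without WT no serum replicate 1 or 5 and highest without WT no serum replicate 4. Of 15 G1 cyclins and inhibitors 3 passed as higher and 6 as lower, and Ccnd1, cyclin D1, had a shift of -0.17 (adjusted p = 0.169).

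Of 3 lists of genes that cells are known to turn on when serum is withdrawn, 1 leaned lower with serum. Of 27 measured FoxO and atrophy genes 16 passed the adjusted test as lower and 1 as higher (median shift -0.27), with 0 order-shifted. Of 21 lysosome and autophagy genes 7 passed as lower and 5 as higher (median shift -0.021, above 0 without WT serum replicate 1 or 6), and of 12 growth arrest genes 3 as lower and 2 as higher (median shift -0.17), with Dcn order-shifted. Sesn3 and Sesn1, stress sensors that restrain mTOR, had shifts of -0.75 (adjusted p = 1.62e-05) and -0.71 (adjusted p = 0.000141), and the atrophy ubiquitin ligases Fbxo32 and Trim63 of -0.27 (adjusted p = 0.0375) and 0.27 (adjusted p = 0.187). Of 26 fatty acid oxidation genes 15 passed as lower and 4 as higher (median shift -0.37), with Ucp3, a mitochondrial uncoupling protein, at -1.32 (5.59 to 6.41 against 4.26 to 4.79) and Angptl4, a secreted inhibitor of lipoprotein lipase, at 1.26 (5.86 to 6.31 against 6.98 to 7.59). Neither was order-shifted, though Angptl4 was so under 15 of 24 other settings. Of 26 respiratory chain genes 10 passed as lower and 2 as higher, and the list mean was low on the same 3 arrays as the myocyte markers, at -0.17 on WT no serum replicate 2 and -0.33 and -0.30 on WT serum replicates 3 and 4, against -0.07 to 0.28 on the others. Without these 3 arrays 10 passed as lower and 4 as higher. Cox6a2, the muscle form of a cytochrome oxidase subunit, fell 2.0-fold (9.47 to 9.81 against 8.30 to 8.97), a call kept under 17 of 24 other settings and lost without the 3 arrays.

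Interferon stimulated genes leaned lower too. Of 20 measured genes 14 passed the adjusted test as lower and 1 as higher, with a median shift of -0.49 and 0 order-shifted, and 9 of the 20 had a mean log2 under 5. Oasl2 had values of 6.24, 6.01, 6.10, 5.96 and 6.47 without serum and of 4.83 to 5.10 (median 4.98) with serum (shift -1.23, 2.3 robust SDs, adjusted p = 2.05e-07). The higher one was Ifih1, a sensor of double-stranded RNA (5.48 to 5.85 against 6.32 to 6.98, shift 1.03). Of 14 p53 target genes 7 passed as lower and 1 as higher (median shift -0.26), led by Pmaip1, a promoter of cell death (shift -0.83).

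The remaining lists had medians between -0.17 and 0.24 and few order-shifted members. These were Gstm1, a glutathione transferase, which fell 2.26-fold (9.65 to 10.75 against 8.82 to 9.44), and Hspe1, the mitochondrial chaperonin partner, which rose 2.10-fold (9.65 to 10.18 against 10.78 to 11.18) and kept its call under 19 of 24 other settings, beside Il11, Hbegf, Edn1, Errfi1 and Dcn given above. Of 15 measured cytosolic ribosomal protein genes 0 passed as higher and 6 as lower (median shift -0.03). Rps15a, outside that list, read 8.61 to 9.07 without serum and 6.65 to 7.41 with serum (shift -2.01), and 3 of the 4 probe sets of Rpl27 were order-shifted, one with a shift of -1.52, but such genes have processed copies across the genome that can share probes, so their values are uncertain.

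The cultures carried the markers of the cell type they are labelled with. All 10 cardiac myocyte markers had a mean log2 over 5, but 12399 of 19938 genes had one of 5 or more. The mean level of the myocyte list was 11.8. Lists of other cell types ranged from 4.39 (red blood cell markers) to 8.85 (smooth muscle and pericyte markers). Actc1 read 13.50 to 13.85 without serum and 13.55 to 13.82 with serum. Of the 10, 2 passed the adjusted test as lower and 0 as higher (median shift -0.19). The mean of the list per array, relative to the 12 WT arrays, was 0.34, -0.59, 0.17, 0.38 and 0.30 without serum and -0.65 to 0.30 with serum. WT no serum replicate 2 and WT serum replicates 3 and 4 (-0.65 and -0.56) thus stood apart from the rest as low in myocyte markers. With these 3 arrays left out together, a setting added after the data were seen, 558 probe sets were order-shifted, of which 479 were among the 540, and for the cholesterol list 20 of 20 genes passed as lower, 9 of them order-shifted.

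Among the marker lists of other cell types, only the endothelial one held a larger share past the adjusted test than all genes (57.9%). Of 17 endothelial markers 11 passed it as higher and 3 as lower (median shift 0.28). The list mean was -0.54 to -0.06 without serum and -0.16 to 0.58 with serum, highest on WT serum replicates 3 and 4. Emcn, endomucin, had values of 4.80, 5.08, 4.67, 4.58 and 5.70 without serum and of 6.18 to 7.93 (median 7.09) with serum (3.97-fold, SE of the log2 difference 0.30, adjusted p = 0.000101), and Flt1, a VEGF receptor, rose 2.61-fold (6.11 to 6.92 against 7.40 to 8.10). The adhesion genes Cdh5 and Pecam1 had shifts of 1.19 and 0.93 (4.75 to 5.59 against 5.58 to 7.25, and 4.46 to 5.39 against 5.22 to 6.68), and Tek, a receptor of angiopoietins, one of -0.67. With the 3 arrays left out, 9 passed as higher and 3 as lower, with 2 order-shifted. The part of endothelial cells in the rise of order-shifted genes that such cells are known to express, such as Plvap and Podxl (3.48-fold and 3.49-fold higher), was not tested.

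Fibroblast markers, read beside the matrix genes, gave 4 of 14 that passed as lower and 1 as higher (median shift -0.22). The shares over all genes were 28.7% lower and 29.2% higher. The list mean ran from -0.37 to 0.70 without serum and from -0.68 to 0.23 with serum, and its order over the arrays without serum (highest on replicates 1 and 5, lowest on replicate 4) was that of Dcn and Fmod. Dcn is itself part of that mean, so its likeness is partly built in. The order was also not particular to fibroblast markers. The means of the matrix, growth arrest, and DNA replication and cell cycle lists had the same order over these arrays. The lower members beside Dcn were Lum (shift -1.16), Col3a1 (-1.12) and S100a4 (-0.70), while Pdgfra had a shift of 0.73 and Col1a1 and Col1a2 of 0.01 and -0.16. Whether fewer fibroblasts had a part in the fall of the matrix genes was not tested. Of 10 smooth muscle and pericyte markers 4 passed as lower and 1 as higher (median shift -0.19), and of 17 macrophage and leukocyte markers 5 as higher and 3 as lower (median shift 0.0018, from -0.15 without WT no serum replicate 2 to 0.23 without WT no serum replicate 5, and below 0 with the deposited or median-centred values and normal scores). Of 14 epicardial and mesothelial markers 4 passed as higher and 3 as lower (median shift 0.21), with Upk1b order-shifted. Of 9 neural markers 2 passed as higher and 3 as lower, and of 3 measured red blood cell markers 1 as higher, all 3 of the latter with a mean log2 under 5.

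**Figure D5:**
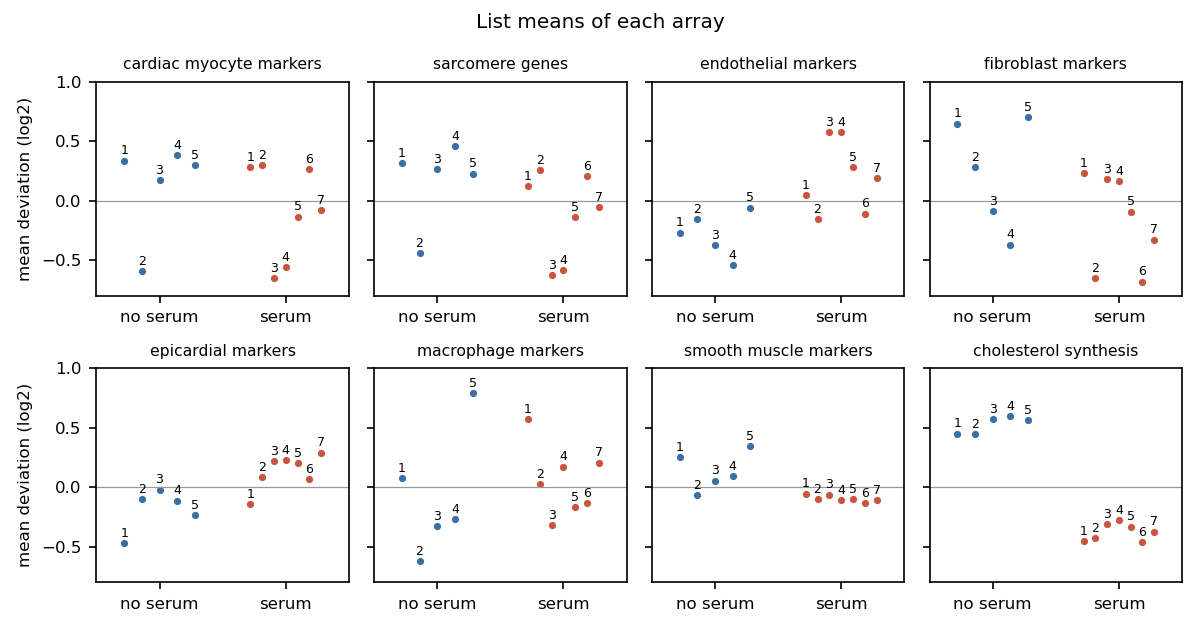
Mean deviation of 8 gene lists on each WT array (vertical axis, log2, relative to the 12 WT arrays), with blue points for the 5 arrays without serum, red points for the 7 with serum, and the replicate number beside each point. Myocyte and sarcomere means are lowest on no serum replicate 2 and serum replicates 3 and 4, endothelial means are highest on serum replicates 3 and 4, and the cholesterol synthesis mean separates the groups on all 12 arrays.

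The genes with the largest falls came from several gene families not known for a role in heart muscle. Among the 15 largest falls, beside the matrix genes and Ptn, were Olfr598 (10.0-fold), Eif4a3l1 (7.18-fold), Usp17ld (7.01-fold), AY036118 (5.20-fold), Defb8 (5.11-fold), Mir451a (4.61-fold), the sterol hydroxylase Cyp39a1 (4.28-fold), Vpreb2 (4.15-fold), Scgb2b2 (4.07-fold) and Dnah3 (4.01-fold). Olfr598, an olfactory receptor, read 6.55 to 6.98 without serum and 3.27 to 3.71 with serum, and Eif4a3l1, an Eif4a3-like gene, read 6.27 to 6.45 and 3.44 to 3.67. Many of these belong to families of near-identical copies, so which copy was read is uncertain, and Dnah3 was called by 1 of its 33 probe sets. Of 1270 genes of the receptor and defensin families, 8 were order-shifted (0.630%), 7 of them lower, and of 12147 probe sets not named here 348 were order-shifted (2.86%), 266 of them lower. Among genes with a mean log2 of 5 or more, 134 of 12399 were order-shifted (1.08%), 84 higher and 50 lower.

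The same comparison in TG myocytes, with 7 arrays against 6 and its own controls, was read beside it. All 177 order-shifted genes had a shift of the same sign in TG, beside 18183 of all 19938 genes (91.2%). Of the 177, 125 were order-shifted there too, 68 higher and 57 lower, beside 510 of all 35557 probe sets in TG. The TG arrays carry the same difference in scale between the sets. Side by side, the shifts in WT and TG were 3.17 and 2.59 for Serpinb2, 2.21 and 2.27 for Fgf2, 1.85 and 1.67 for Ptgs2, and 1.80 and 1.79 for Tnc. They were -1.49 and -1.37 for Fdps, -1.46 and -1.73 for Idi1, -1.45 and -1.67 for Insig1, -2.37 and -2.10 for Dcn, and -1.89 and -1.52 for Tcap. The median shift of the cholesterol list was -0.94 in WT and -0.91 in TG. The difference of the serum effect between WT and TG, tested as an interaction in limma over all 25 arrays, was past the adjusted test for 0 of 35557 probe sets (0%). At an unadjusted p under 0.05 there were 1629, fewer than chance alone would be expected to give. The widest gaps among the leading genes were at Usp17ld (-2.81 in WT and -0.35 in TG) and AY036118 (-2.39 and -0.95), so nothing here was shown to be particular to WT.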

How the data were processed

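RNA of 25 cultures was read on Affymetrix Mouse Gene ST arrays, and the 12 WT arrays are compared here. Per the labels and the methods, the authors summarised and normalized the arrays by RMA in Affymetrix Expression Console 1.1, and the deposited values are log2 intensities of 35557 probe sets. The 25 arrays were quantile normalized together, since their deposited scales differ with serum, and fitted with limma 3.58.1 in R 4.3.3 (lmFit and eBayes on the 12 WT arrays, Benjamini-Hochberg adjustment over all probe sets). The interaction was fitted on all 25 arrays. The threshold was an adjusted p of 0.05. Order-shifted probe sets also met the limits on shift, robust SDs and ranks given above. The number of arrays limits the precision, and no filter was set on intensity.

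Probe sets with 1 gene symbol numbered 21789, with several 1621, and without a name here 12147. Symbols were updated through RefSeq (GRCm38.p6), which matched 21698 probe sets, and each of 19938 genes was taken from its brightest probe set, except genes called by another. Genes were named by a rule: the 15 largest order shifts each way, for each list its order-shifted members (up to 4) or else the 2 largest shifts, and a set of well-known hypertrophy, serum response and atrophy genes. Others are said to be chosen after their values were seen, or stand as members of a list. The members and gene lists were chosen with earlier results of these data known. Alternatives were other scalings, array weights, a variance trend, all arrays in 1 fit, a block, filters, thresholds and leaving out arrays. The scripts were tested by adding known differences to probe sets of these arrays that had little shift. The rate of false calls was not measured.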

Additional observations from a re-analysis of the deposited data

Results flagged for a closer look

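In 15 of 240 groups of values, over 120 named genes, a single array lay far from the others of its group on the log2 scale, and chance alone would single out about 1 in 20 groups. WT no serum replicate 2 was the low array for 5 heart muscle genes, Myl2 (12.2), Nppa (12.5), Nppb (9.83), Myh6 (10.1) and Myh7 (9.86), and for Smyd1 (9.44), and the high array for Rps19 (9.96). Replicate 5 without serum was high for Fgf2 (5.68) and Pdia6 (10.7), replicate 1 without serum was high for Heyl (6.21) and Ucp3 (6.41), and replicate 4 without serum was low for Rpl14 (7.83). With serum, replicate 1 was high for Ptn (5.33) and C1qb (6.95), and replicate 2 was low for Psmd14 (9.32).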

How the results depend on the processing

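The count of probe sets past the adjusted test ranged from 18692 to 20032 as each WT array was left out, and was 10413 without dim probe sets and 13018 among probe sets with 1 gene symbol, where fewer were tested. The count of order-shifted probe sets ranged from 532 to 562 as each array was left out and from 524 to 586 over the other scalings. It was 324 without dim probe sets, 243 with 1 symbol only, 321 at a 3-fold shift, 1561 at 2 robust SDs and 169 at 4. The serum effect differed between WT and TG for 1 probe set with deposited values, 6 with each array centred and 2 with array weights, and for 0 to 2 as arrays were left out (1 without WT no serum replicate 2, 2 without WT serum replicate 3, 1 without WT serum replicate 4). Arrays that share a number in their labels were not alike (same-number correlations -0.24 to 0.15). With that number as a block, 17220 probe sets passed the adjusted test and 527 were order-shifted, 483 of them among the 540. A figure legend in the paper lists another run of numbers for the WT no serum arrays. Some arrays matched here by number may thus stem from different preparations, so these correlations cannot decide whether cultures were paired.

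Among the named genes the sign turned for Nppa, Nppb, Myh6, Acta1, Actc1 and Col1a1, all with small shifts. With arrays left out in turn, the shift of Nppb ranged over -0.19 to 0.21 (-0.19 without WT no serum replicate 2), -0.31 to 0.18 for Myh6, -0.16 to 0.11 for Acta1, -0.053 to 0.038 for Actc1 and -0.12 to 0.11 for Col1a1. Nppa had -0.029 with deposited or centred values and -0.30 when these were scaled to 1 SD. The shift of Actc1 was -0.28, -0.28 and -0.70 there, -0.00852 with normal scores, -0.010 with array weights and -0.00446 with 1 symbol only. Scaled to 1 SD, the shift of Acta1 was 0.00813 and the shift of Col1a1 -0.060. Myh6 had -0.094 with array weights. With the block, Nppb had -0.010, Myh6 -0.056 and Actc1 -0.019. Without the 3 arrays low in myocyte markers, chosen after seeing the data, Myh6 had -0.017, Acta1 0.11 and Col1a1 -0.12. Of the other values of named genes under these settings, 2728 kept their direction and their side of the threshold, 82 lost the adjusted call and 22 gained it, and the cause was not tested. Leaving out each array for the gene lists was also added after seeing the data. Serum and the set of arrays cannot be told apart.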
